A study of Sus scrofa domesticus with 36 samples.

Results

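PPARG, CEBPA, ACVR1C, TMEM120A and CFD are 5 genes tied to the making and the identity of fat cells, and their mRNA was compared here between subcutaneous backfat and the longissimus dorsi, a long muscle beside the spine, in the same pigs. They were taken by symbol, each matched to 1 Ensembl pig gene, and are 5 of the 25322 genes counted. All 5 were higher in backfat than in muscle in 18 of 18 pigs. The share of all genes higher in backfat in 18 of 18 pigs was not counted. In the tissue test below all 5 passed in this direction, as did 46.7% of the 12542 genes tested. The size of the difference spread widely, from 2.05-fold for TMEM120A to 71.9-fold for ACVR1C as ratios of the group means. The latter rests on 10.0 muscle counts and was 119-fold without 1 muscle library, that of pig Sample_889. Within a tissue, 60 relations over pigs of the 5 genes with each other or with marker genes were tested. By Spearman's rho 0 passed, and by Pearson's r 5 did.

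White fat cells form from fibroblast-like progenitors through a cascade of transcription factors. Early factors switch on PPARG, a nuclear receptor bound by fatty acid ligands, and CEBPA, a leucine zipper protein. These factors then keep each other active and turn on the genes of lipid storage. ACVR1C encodes a type I receptor of the activin branch of the TGF-beta family, which passes signals to Smad proteins and is known in fat cells as a restraint on lipid breakdown. TMEM120A encodes a membrane protein of the nuclear envelope, found at high levels in fat and tied to fat cell differentiation in cell culture. CFD encodes adipsin, or complement factor D, a serine protease secreted by fat cells that cuts complement factor B and so starts the alternative complement pathway.

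The libraries came from 18 commercial pigs, 1 backfat and 1 muscle library from each animal (36 libraries). The growth protocol names the cross as Danbred 600 X Newsham NC32, whereas the breed label carries a different NC code in each of the 36 libraries, even in both libraries of 1 pig, and was not used. Backfat was taken between rib 8 and the last rib. The pigs were chosen by growth rate, 9 from the lowest 10th percentile and 9 from percentiles 60 to 70, and set up as 9 pairs. Which pig belonged to which class is not stated in the labels, so both tissue groups hold both classes. The design text places sampling 3 weeks after weaning, whereas the sample labels give an age of 16 to 17 days and the stage weaning. Pigs are named as in the labels, as Sample_889 and so on.

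Counts assigned to genes ran from 2990913 to 5373406 per backfat library and from 4716541 to 6216459 per muscle library. Levels are given as CPM, counts scaled to a common library total, after trimmed-mean scaling, with factors of 1.36 to 1.84 in backfat and 0.496 to 0.862 in muscle. The labelled tissues matched their markers. PLIN1, which coats the lipid droplet of fat cells, stood at 460 ± 108 CPM in backfat and 5.48 ± 6.41 CPM in muscle, and ACTA1, the actin of skeletal muscle fibres, was higher in muscle in 18 of 18 pigs. Of 6 fat cell markers listed, 2 had a row under their symbol, and their summed level was 332 to 860 CPM in backfat and 2.34 to 49.5 CPM in muscle. Of 9 muscle fibre markers, 6 had a row, and all 6 were higher in muscle. They summed to at most 25285 CPM in backfat, with a median of 1210 CPM and no marker at 0 in every backfat library, and to 69000 to 435395 CPM in muscle. What these other-tissue transcripts contribute to the results was not tested, but the tissue differences of the 5 genes are given below also without the pigs in which they were highest. These are bulk tissues, so fewer cells of a type and less RNA per cell cannot be told apart.

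PPARG (ENSSSCG00000011579) was 17.0-fold higher in backfat. Its level in the 18 backfat libraries was lowest at 41.0 CPM in Sample_491, with a median of 77.9 CPM, and highest at 115 CPM in Sample_77. In muscle it ran from 2.17 CPM in Sample_731 through a median of 4.26 CPM to 10.9 CPM in Sample_889. The lowest backfat library therefore stood 3.74 times above the highest muscle library, and the groups did not overlap. The muscle values rest on 6.5 to 38 counts per library, the backfat values on 312 to 950.5.

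CEBPA (ENSSSCG00000002866) was 20.8-fold higher in backfat. It ran from 41.2 CPM in Sample_572 through a median of 59.6 CPM to 127 CPM in Sample_889 in backfat, and from 1.002 CPM in Sample_731 through 2.91 CPM to 11.2 CPM in Sample_889 in muscle. The same pig, Sample_889, was thus the highest in both tissues, with 109 CPM the next highest in backfat and 5.18 CPM in muscle. The groups did not overlap, and the muscle values rest on 3.0 to 39.0 counts per library.

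ACVR1C (ENSSSCG00000015873) had by far the lowest counts of the 5 genes in muscle. In backfat it ran from 6.32 CPM in Sample_491 through a median of 12.3 CPM to 22.02 CPM in Sample_731, from 1587.5 counts in all. In muscle, 9 of 18 libraries held no count, 8 held 0.5 or 1 count, and Sample_889 held 4.5 of the 10.0 counts of the whole group, which is 1.30 CPM. The groups did not overlap. The fold for this gene is therefore the least exact of the 5: the fitted log2 difference was 6.41, and 7.32 without Sample_889.

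TMEM120A (ENSSSCG00000021837) differed least between the tissues and was the only one of the 5 whose groups overlapped. It ran from 30.6 CPM in Sample_835 through a median of 41.4 CPM to 66.8 CPM in Sample_176 in backfat, and from 10.4 CPM in Sample_391 through 20.5 CPM to 41.4 CPM in Sample_572 in muscle. Within each pig the backfat library was nevertheless the higher one, by 0.130 (Sample_186) to 2.05 (Sample_176) on the log2 scale.

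CFD (ENSSSCG00000013418) was 3.61-fold higher in backfat and well detected in both tissues. It ran from 324 CPM in Sample_391 through a median of 562 CPM to 792 CPM in Sample_656 in backfat, and from 77.3 CPM in Sample_991 through 164 CPM to 288 CPM in Sample_491 in muscle. The groups did not overlap, although the lowest backfat library stood just 1.13 times above the highest muscle library. Muscle libraries held 218 to 1155.5 CFD counts, so adipsin mRNA was plainly present there.

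**Figure D1:**
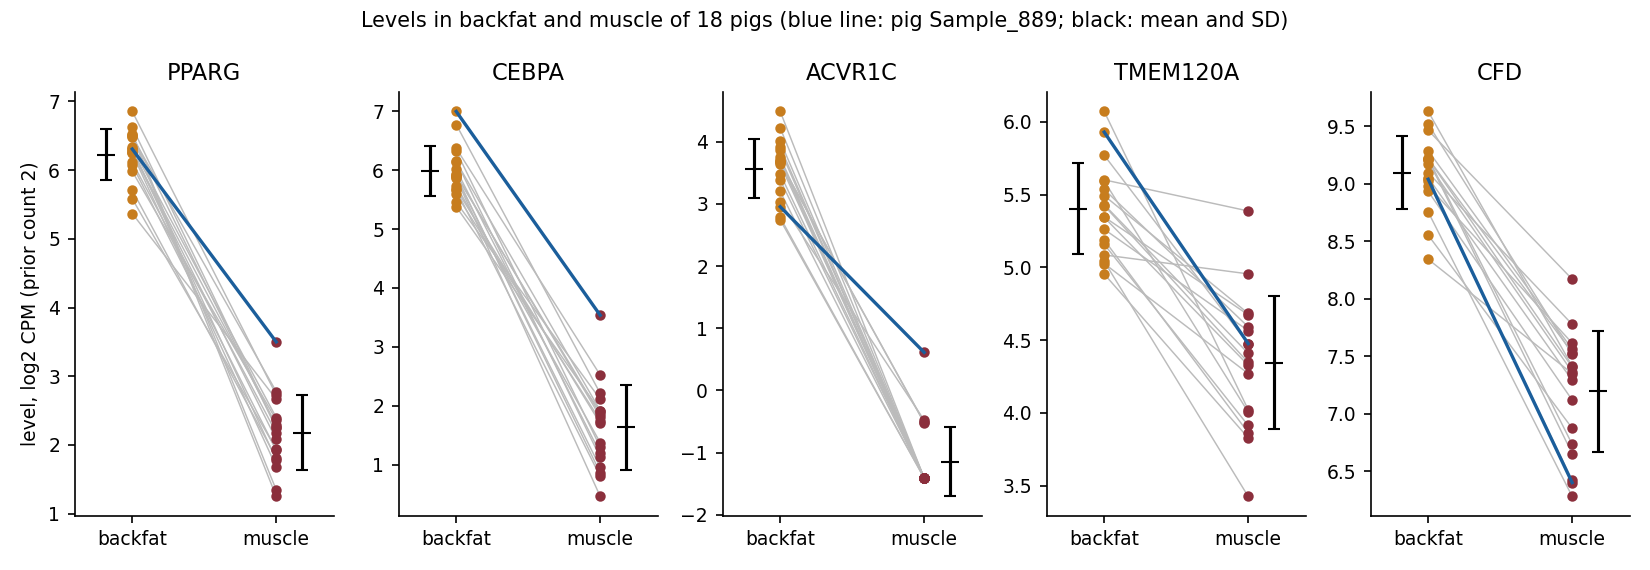
Level of each gene on the log2 CPM scale (prior count 2) in the backfat (orange) and muscle (red) library of 18 pigs, with a line per pig and the mean and SD of each tissue in black. Every line falls from backfat to muscle, steeply for PPARG, CEBPA and ACVR1C and least for TMEM120A, and Sample_889 (blue) is the highest muscle library for the former 3 genes and the 17th of 18 for CFD. The share of all genes higher in backfat in 18 of 18 pigs was not counted.

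In the quasi-likelihood test of edgeR over 12542 genes (Benjamini-Hochberg adjustment, threshold 0.05), all 5 genes were higher in backfat, where 46.7% of all genes tested were. The log2 difference was 4.08 (SE 0.160, adjusted p = 5.6e-24) for PPARG and 4.35 (SE 0.209, adjusted p = 3.9e-21) for CEBPA. It was 6.41 (SE 0.326, adjusted p = 1.8e-20) for ACVR1C, 1.03 (SE 0.130, adjusted p = 2.9e-09) for TMEM120A and 1.85 (SE 0.143, adjusted p = 6.0e-15) for CFD. The median over all genes tested was 0.14. All 5 passed with at least a 2-fold difference, as did 27.3% of genes in this direction, and 4 of the 5 had every backfat library above every muscle library, as did 14.9% of genes. TMEM120A lay close to the 2-fold line, a log2 difference of 1. It fell under that line in some settings, such as 0.957 without Sample_176 and 0.88 without the 4 pigs with the most ACTA1 in backfat. Of all genes tested, 17 had a larger difference towards backfat than ACVR1C, 123 than CEBPA, 149 than PPARG, 1477 than CFD and 3349 than TMEM120A. PPARG, CEBPA and ACVR1C passed the filter on low counts only through their backfat libraries, so a difference was built into their being tested. TMEM120A and CFD passed it in muscle alone.

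Each of the 5 kept its direction and its call at an adjusted p of 0.05 under every setting tried. Scaling by library totals alone, which moves the median of all genes to 1.505, gave 5.44 for PPARG, 5.70 for CEBPA, 7.61 for ACVR1C, 2.36 for TMEM120A and 3.22 for CFD. Without the 4 pigs with the most ACTA1 in backfat the log2 differences were 3.99, 4.27, 6.47, 0.88 and 1.87 in the same order. Without the 4 pigs with the most PLIN1 in muscle they were 4.27, 4.45, 8.09, 1.03 and 1.82, so the difference was as large or larger there for every gene but CFD.

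The tissue difference was then set against that of close relatives, within each pig, where scaling and gene length cancel. PPARG belongs to a family of 3 nuclear receptors. PPARA, which drives fatty acid oxidation, was higher in muscle (12.03 ± 2.51 against 3.90 ± 1.30 CPM; mean ± SD, n = 18), and PPARD was at 74.1 ± 19.9 CPM in muscle and 52.2 ± 10.1 CPM in backfat. The tissue difference of PPARG exceeded that of PPARA by 5.63 (SE 0.166) and that of PPARD by 4.52 (SE 0.208) on the log2 scale, in 18 of 18 pigs each. Among the type I receptors that signal through the same Smads, ACVR1B was lower in backfat (14.8 ± 3.13 CPM) than in muscle (21.5 ± 6.19 CPM), and TGFBR1 was higher (13.7 ± 3.14 against 7.82 ± 1.94 CPM). The tissue difference of ACVR1C exceeded theirs by 5.21 (SE 0.282) and 3.94 (SE 0.202), again in 18 of 18 pigs. With a prior count of 0.5 in place of 2 these became 6.87 and 5.58, since the muscle counts of ACVR1C are so few.

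TMEM120A has 1 paralogue, TMEM120B. TMEM120B stood at 22.8 ± 7.44 CPM in backfat and 22.7 ± 7.02 CPM in muscle, a log2 difference of 0.0030 (SE 0.144) with 10 of 18 pigs higher in backfat, which did not pass (adjusted p = 0.99, edgeR). The tissue difference of TMEM120A exceeded that of TMEM120B by 1.05 (SE 0.160), in 17 of 18 pigs (adjusted p = 5.0e-05). All these comparisons used a two-sided sign-flip permutation test over pigs with 100000 resamples, adjusted over 10 gene pairs. The comparisons of PPARG and ACVR1C with their relatives each gave an adjusted p of 2.2e-05. The smallest unadjusted p that 100000 resamples can give is 1e-05, so these values do not rank the comparisons. PPARG and ACVR1C passed the filter on low counts only through backfat. A difference towards backfat was thus built into their being tested, and these comparisons are not separate support for it.

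The 5 genes were also set against PLIN1 within each pig, on the log2 CPM scale with a prior count of 2, where the mean tissue difference of PLIN1 was 6.68. Only 18 of the genes tested had a larger edgeR difference towards backfat than PLIN1, so a smaller difference was largely fixed by choosing PLIN1. PPARG, CEBPA, TMEM120A and CFD differed less between the tissues than PLIN1 in 18 of 18 pigs. The share of all genes that did so was not counted. The gaps to PLIN1 are therefore given for their size, and their direction and adjusted p do not set these genes apart from others. The gap was -2.64 (SE 0.173) for PPARG, -2.33 (SE 0.235) for CEBPA, -5.63 (SE 0.272) for TMEM120A and -4.78 (SE 0.245) for CFD, each with an adjusted p of 2.2e-05 in the same permutation test. For ACVR1C the gap was -1.97 (SE 0.160), but -0.43 with a prior count of 0.5, which did not pass (adjusted p = 0.055), and the edgeR fit put ACVR1C (6.41) level with PLIN1 (6.39). The gap of ACVR1C thus depends on the prior count and gives no order of the 2 genes. Every muscle library with 0 or 0.5 ACVR1C counts is set at that prior count, since 0.5 was rounded to 0.

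**Figure D2:**
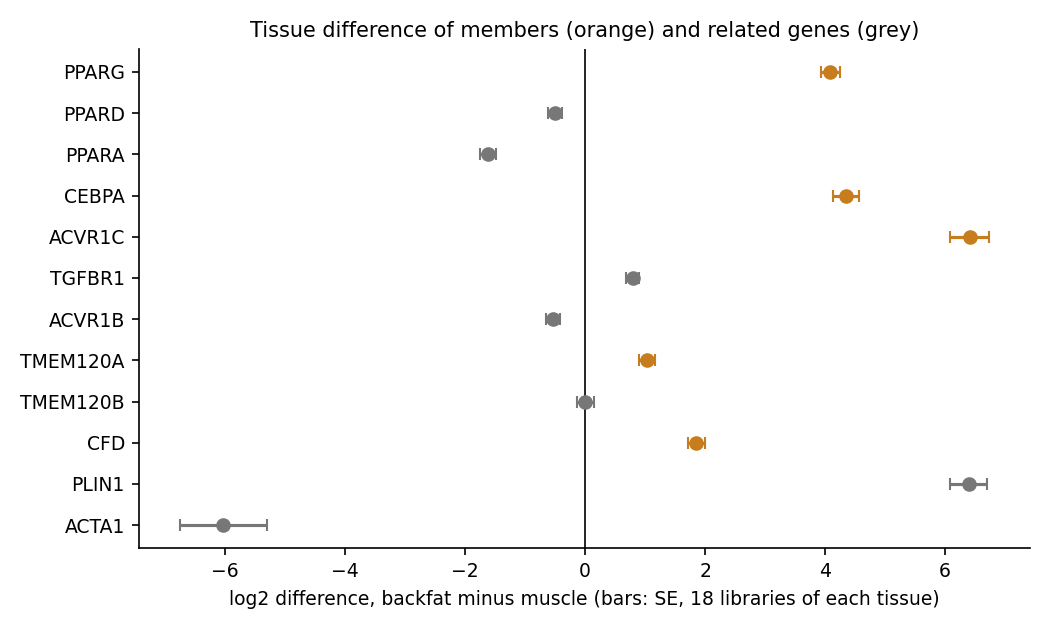
Log2 difference between backfat and muscle for the 5 genes (orange), their relatives and the markers PLIN1 and ACTA1 (grey), with SE bars over 18 libraries of each tissue. PPARG at 4.08 stands apart from PPARD and PPARA, both below 0, ACVR1C at 6.41 lies next to PLIN1 at 6.39, and TMEM120A at 1.03 lies to the right of TMEM120B at 0.0030.

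Expressed as a share of its backfat level, the mean muscle level was 1.39% for ACVR1C, 4.80% for CEBPA, 5.89% for PPARG, 27.7% for CFD and 48.8% for TMEM120A, beside 1.19% for PLIN1. Without the muscle library of Sample_889 the share was 0.841% for ACVR1C and 0.883% for PLIN1, and 4.08% for CEBPA, 5.40% for PPARG, 28.5% for CFD and 48.6% for TMEM120A. The muscle library of Sample_889 stood apart in this respect. It held 29.6 CPM of PLIN1, against at most 9.40 CPM in the other 17 pigs. Relative to the mean of those 17, it was 7.30-fold for PLIN1, 12.8-fold for ACVR1C (from 4.5 counts), 4.17-fold for CEBPA and 2.63-fold for PPARG. TMEM120A was 1.05-fold there, and CFD was 0.527-fold, the lowest but 1 of all muscle libraries. Without this library the muscle mean was 4.15 ± 1.30 CPM for PPARG and 2.69 ± 1.15 CPM for CEBPA (SD, n = 17). MRC1, a macrophage receptor, was also highest in this muscle library, at 38.1 CPM against at most 22.9 CPM elsewhere.

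Genes that act around the 5 were taken as fixed lists. Among early and other factors that promote fat cell formation, 12 had a row and were tested, and 7 were higher in backfat and 3 in muscle, where 46.7% and 39.2% of all genes tested were. The list median was 0.56 on the log2 scale, beside 0.14 over all genes. The 3 higher in muscle were KLF9 (-0.72, SE 0.170), STAT5A (-0.45, SE 0.0761) and STAT5B (-1.22, SE 0.103), a Krüppel-like factor and a pair of cytokine-activated factors. NR1H3, the lipid sensor LXR-alpha, stood at 0.17 (SE 0.166), which did not pass, and 0.32 without Sample_735, which did (adjusted p = 0.031). Scaling by library totals put 11 of the 12 on the backfat side and none on the muscle side.

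Of 9 tested genes that brake fat cell formation, 7 were higher in backfat and 0 in muscle, beside the same 46.7% and 39.2% of all genes, with a median of 0.49. SFRP1, a secreted binder of Wnt proteins, had the largest difference among those named here (3.77, SE 0.178), with 128 ± 30.4 CPM in backfat and 9.33 ± 5.11 CPM in muscle. NR2F2, a nuclear receptor, was higher in backfat by 0.31 (SE 0.107). CTNNB1, the Wnt mediator beta-catenin, was 300 ± 37.4 CPM in backfat and 294 ± 28.2 CPM in muscle, and FOXO1 was 109 ± 35.0 and 151 ± 138 CPM; neither passed.

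Of the partners and coregulators through which PPARG acts, 17 were tested, with a median of -0.75. Of these 17, 13 were higher in muscle and 2 in backfat, where 39.2% and 46.7% of all genes tested were. EP300, a histone acetylase (-0.85, SE 0.0979), NCOR1, a corepressor (-0.87, SE 0.0998), and NCOA1, a coactivator (-0.86, SE 0.0748), were each higher in muscle, and 2 of the 17 did not pass. The 2 on the backfat side were NCOA2 (0.56) and NCOA3 (0.69). This split rests on the scaling: with library totals, 12 of the 17 were higher in backfat and 2 in muscle, and EP300, NCOR1 and NCOA1 turned to 0.52, 0.50 and 0.52.

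Of 12 tested targets of PPARG and CEBPA in fat cells, 7 were higher in backfat, 1 in muscle and 4 did not pass, with a median of 1.09. Of all genes tested, 46.7% were higher in backfat and 39.2% in muscle. LIPE, the hormone-sensitive lipase, was higher in backfat by 2.61 (SE 0.311). PLIN4, another droplet coat protein, was higher by 0.40 (SE 0.159), but did not pass without the 4 pigs with the most ACTA1 in backfat (0.37, adjusted p = 0.067). GPD1, which makes glycerol phosphate for triglyceride and for the electron shuttle of muscle, was the one target higher in muscle (-3.89, SE 0.188). It reached at most 166 CPM in backfat and stood at 980 CPM or more in every muscle library. ACSL1, a fatty acid activating enzyme, stood at -0.07 (SE 0.135), and G0S2 and INSR also did not pass.

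Around ACVR1C, 12 receptors and Smads of the activin and TGF-beta branches were tested, and all passed, 7 higher in backfat and 5 in muscle, near the split of all genes (46.7% and 39.2%), with a median of 0.56. TGFBR3, a coreceptor, was higher in backfat by 2.51 (SE 0.132). BMPR2 (-0.53, SE 0.0892) and SMAD4 (-0.90, SE 0.0721), the common partner of the signalling Smads, were higher in muscle. SMAD3 (-0.30, SE 0.116) was also called, but not with the pig as a block (-0.26, adjusted p = 0.052), not without Sample_572 (-0.25) or Sample_656 (-0.21) and not without the 4 pigs with the most ACTA1 in backfat (-0.28, adjusted p = 0.058). The type II receptors that pair with ACVR1C lay on opposite sides: ACVR2A was 16.9 ± 2.90 CPM in backfat and 7.87 ± 1.43 CPM in muscle (1.11, SE 0.0890), and ACVR2B was 2.07 ± 0.756 and 19.8 ± 6.50 CPM (-3.25, SE 0.164). Both kept their sides under library totals (2.49 and -1.91), whereas ACVR1B, BMPR2, SMAD3 and SMAD4 turned to the backfat side.

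Few ligands of this pathway could be followed. Of 13 ligands and antagonists listed, 6 had a row and 3 were tested. MSTN, or myostatin, the muscle-made restraint on muscle growth, was higher in muscle (24.1 ± 14.8 against 0.408 ± 0.528 CPM). FST, or follistatin, which binds activins, was higher in backfat by 0.48 (SE 0.170), and GDF11 stood at -0.23 (SE 0.134), which did not pass. GDF3, a ligand described for ACVR1C in fat, was listed at 0 in every library of both tissues, and no fold can be given for it.

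The other nuclear envelope proteins were mixed in direction. Of 14 tested, 3 were higher in backfat, 6 in muscle and 5 did not pass, with a median of 0.02. The shares over all genes tested were 46.7% higher in backfat and 39.2% in muscle. LMNA, which encodes lamins A and C, was higher in backfat by 0.74 (SE 0.124), and the others there were SYNE3 and TMEM43. TMEM38A, a channel of the sarcoplasmic reticulum and nuclear membrane, was higher in muscle (769 ± 174 against 14.5 ± 17.0 CPM), and SUN2, a linker to the cytoskeleton, was also higher there (-0.31, SE 0.0759). SYNE2, LMNB1, LEMD2, LEMD3 and TMEM120B did not pass; LMNB1 did with the pig as a block (0.48, adjusted p = 0.0042) and without Sample_731 (0.60), Sample_889 (0.53) or the 4 pigs with the most ACTA1 in backfat (0.66, adjusted p = 0.048). With library totals 10 of the 14 were higher in backfat and 2 in muscle.

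Of 12 genes tested in and around the alternative complement pathway, in which adipsin acts, 11 were higher in backfat, each at least 2-fold (27.3% of all genes), and the median was 2.50. CFB, the substrate of adipsin, was 44.9 ± 32.8 CPM in backfat and 6.25 ± 4.28 CPM in muscle. C3, the central component, was 259 ± 155 and 116 ± 71.6 CPM, and higher in backfat in 15 of 18 pigs. CFI, which inactivates the C3 product, was higher by 2.40 (SE 0.298), and ITGB2, a chain of complement receptors on leukocytes, by 1.78 (SE 0.279). MASP1, a protease of the lectin pathway, was the exception, higher in muscle (-0.85, SE 0.173), and turned to 0.55 with library totals. C3 and CFB varied far more between pigs in backfat (coefficients of variation of 60.0% and 72.9%) than CFD (20.9%).

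**Figure D3:**
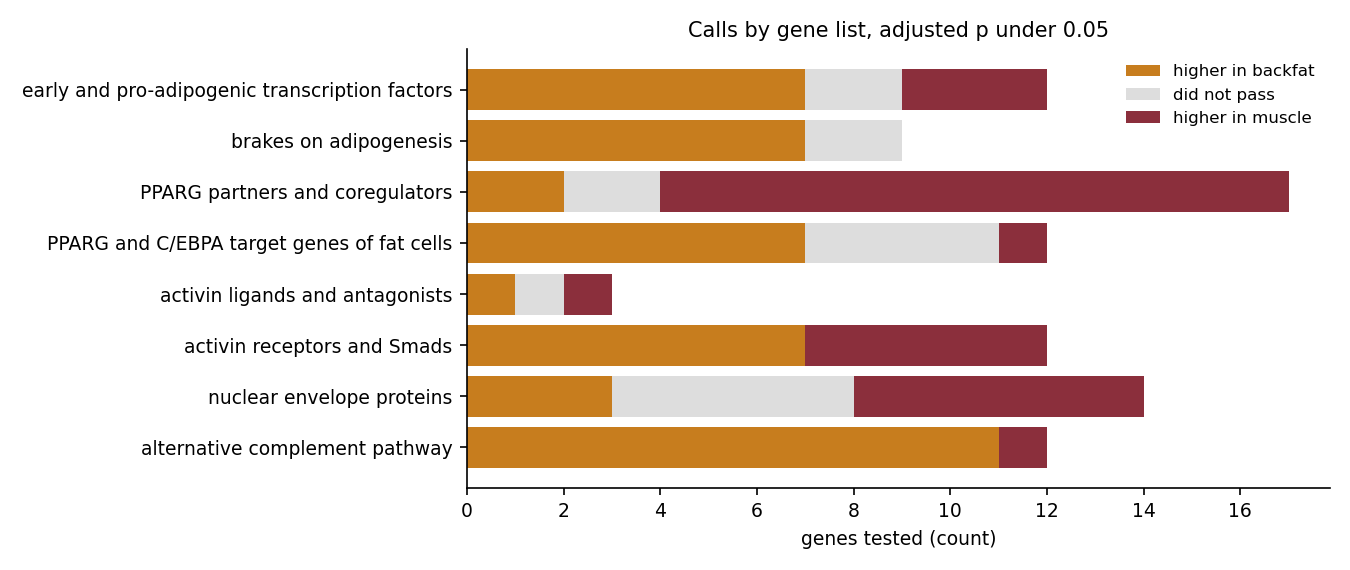
Number of genes of each list that were tested (horizontal axis) and that were higher in backfat (orange), higher in muscle (red) or did not pass (grey) at an adjusted p of 0.05. The complement list is almost wholly orange (11 of 12), the PPARG partners are mostly red (13 of 17), and the nuclear envelope list is mixed (3, 5 and 6 of 14). Of all genes tested, 46.7% were higher in backfat and 39.2% in muscle.

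Markers of other cell types were counted beside these lists. All 5 macrophage markers tested, 5 of 6 stromal progenitor markers and all 3 endothelial markers were higher in backfat, as were 46.7% of all genes tested. The summed macrophage markers stood at 172 to 843 CPM in backfat and 38.2 to 228 CPM in muscle, the stromal ones at 1882 to 8641 and 378 to 1348 CPM, and the endothelial ones at 367 to 910 and 199 to 460 CPM. Of 7 skin and gland markers tested, 4 were higher in backfat and 1 in muscle, beside 46.7% and 39.2% of all genes tested. The skin and gland sums were 74.3 to 371 CPM in backfat and 115 to 219 CPM in muscle. The part of these cell types in the complement result was not tested.

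Whether the 5 genes vary together was asked over the 18 pigs within each tissue, for the 10 gene pairs and for each gene with PLIN1, PDGFRA (a progenitor marker), MRC1 and ACTA1, which makes 60 relations. By Spearman's rho, 0 of 60 passed after adjustment and 7 had an unadjusted permutation p under 0.05; by Pearson's r, 5 passed. Levels from 1 library share its scaling factor, so they are not fully independent measures. Among the 10 pairs the median rho was 0.080 in backfat and 0.045 in muscle.

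The closest pair was PPARG and ACVR1C in backfat. Its rho was 0.709 (adjusted p = 0.051) and its r was 0.740 (adjusted p = 0.013; permutation tests, n = 18). Both genes were lowest in Sample_491 and Sample_735, and without these 2 pigs r was 0.549. Both also moved with PLIN1 in backfat, PPARG at 0.616 by rho (adjusted p = 0.11) and 0.715 by r (adjusted p = 0.013), and ACVR1C at 0.672 by rho (adjusted p = 0.061) and 0.680 by r (adjusted p = 0.028). Sample_491 and Sample_735 were the lowest pigs for PLIN1 as well, and without them these r were 0.516 and 0.505. Leaving out Sample_889, where PLIN1 was high and ACVR1C low, raised the rho of ACVR1C with PLIN1 to 0.841, which passed (adjusted p = 0.0042, permutation test). It raised the rho of PPARG with ACVR1C to 0.762, which also passed (adjusted p = 0.017, permutation test). Other single pigs moved these calls too: PPARG with ACVR1C passed without Sample_231 (0.748), Sample_656 (0.745) or Sample_991 (0.760), ACVR1C with PLIN1 without Sample_231 (0.740), and PPARG with PLIN1 without Sample_991 (0.713).

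PPARG and CEBPA are known to sustain each other's expression, which a correlation over 18 pigs does not test. Their rho was 0.191 in backfat, with r at 0.297, and 0.236 in muscle. None of these passed, which does not show the absence of a relation. In muscle r was 0.533, but -0.018 without the 2 pigs farthest from the median of PPARG, one of them Sample_889, so that value rested on those pigs. CEBPA and CFD in backfat ran in opposite directions (rho -0.548, adjusted p = 0.24; r -0.346), as did CFD and MRC1 (rho -0.511, adjusted p = 0.27; r -0.525), and neither passed.

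In muscle, the correlation of ACVR1C with PLIN1 was 0.672 by rho (adjusted p = 0.051) and 0.800 by r (adjusted p = 0.013; permutation tests, n = 18). That of ACVR1C with PPARG was 0.517 by rho and 0.657 by r (adjusted p = 0.049, permutation test). These correlations rest on the 10.0 ACVR1C counts of the group. Libraries with 0 or 0.5 counts are tied at 1 value, since 0.5 was rounded to 0. Only Sample_186, Sample_391, Sample_889 and Sample_911 lie above that value. Without Sample_889 the rho was 0.591 (adjusted p = 0.15) with PLIN1 and 0.391 (adjusted p = 0.59) with PPARG, by the same test. The former passed without Sample_77 (0.734), Sample_231 (0.682) or Sample_991 (0.682). PPARG with PLIN1 in muscle had a rho of 0.439 (adjusted p = 0.38), and 0.333 without that pig.

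**Figure D4:**
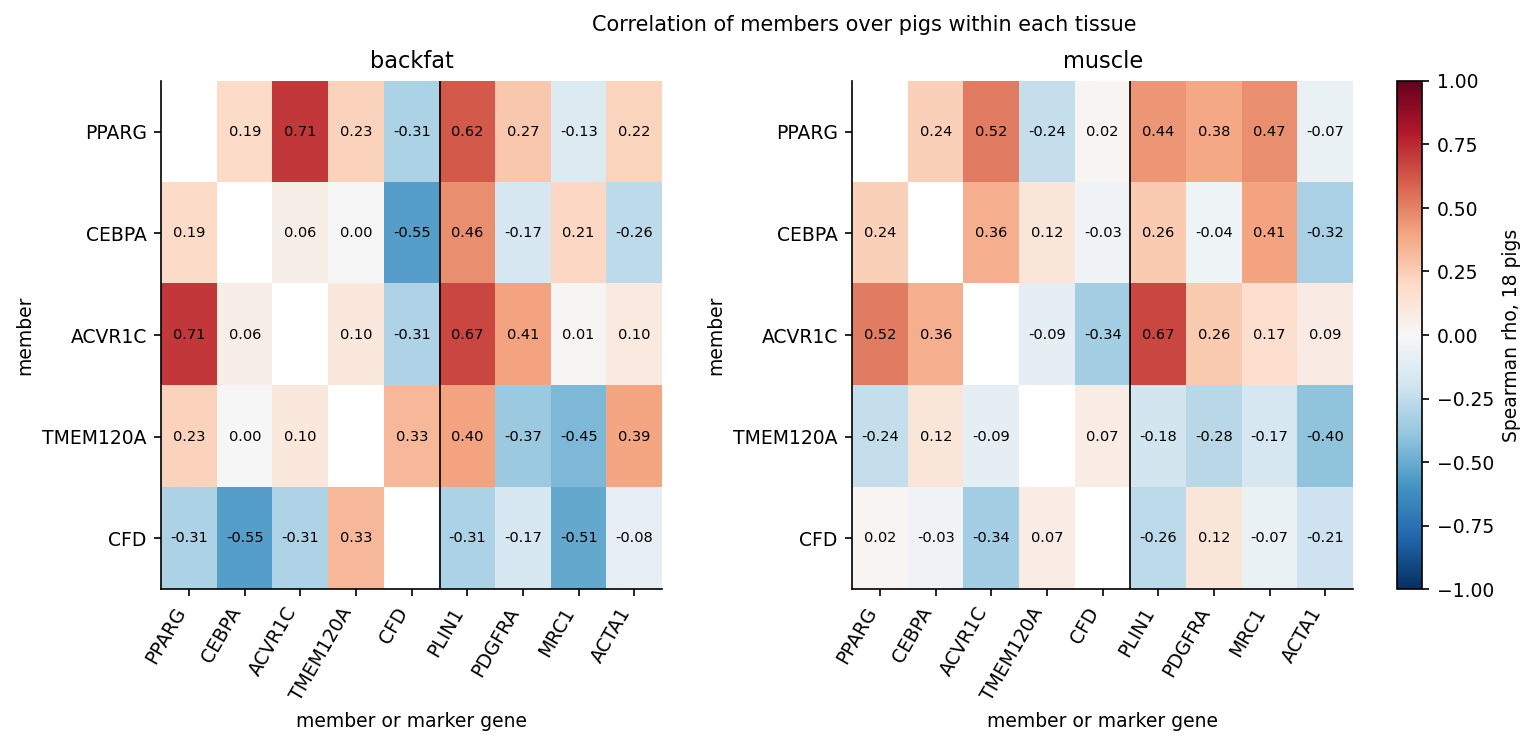
Spearman's rho over 18 pigs for each pair of the 5 genes, and for each gene with the markers PLIN1, PDGFRA, MRC1 and ACTA1 to the right of the vertical line, in backfat and in muscle. The darkest cells are PPARG with ACVR1C in backfat (0.71) and ACVR1C with PLIN1 in both tissues (0.67), and the lowest is CEBPA with CFD in backfat (-0.55).

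**Figure D5:**
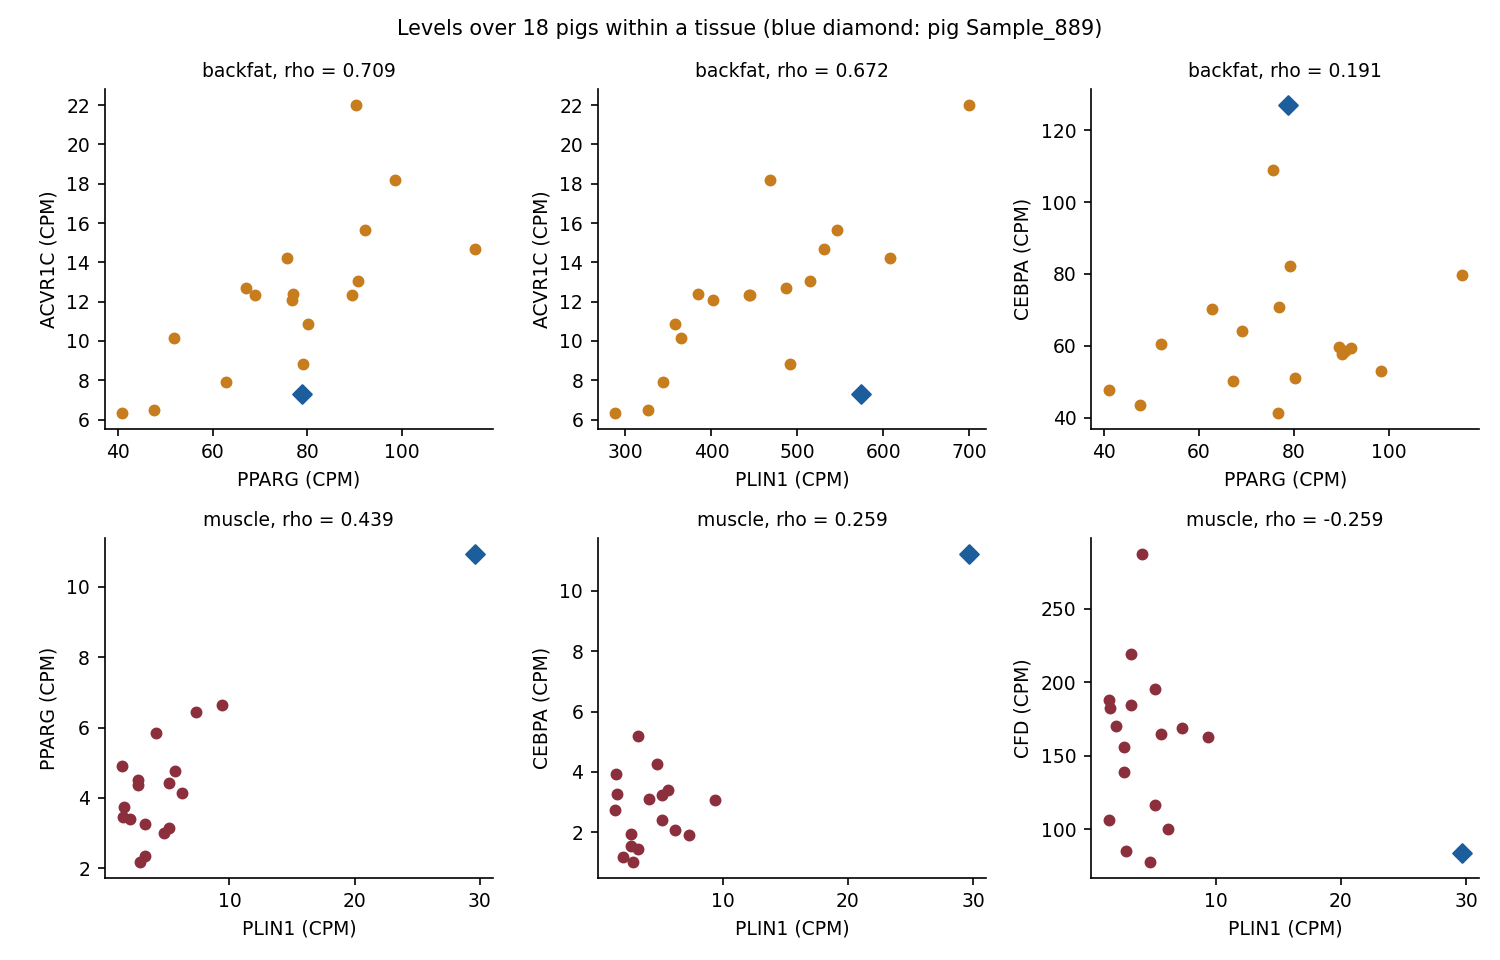
Levels in CPM of the pairs named on the axes, with a point per pig, in backfat (upper row) and muscle (lower row), and Sample_889 as a blue diamond. ACVR1C climbs with PPARG and with PLIN1 in backfat apart from Sample_889, and in muscle that pig lies far to the right of all others for PLIN1, high for PPARG and CEBPA and low for CFD.

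Each gene's backfat level was also set against its muscle level in the same pig. Over 18 pigs, rho between the tissues was 0.067 for PPARG, 0.317 for CEBPA, 0.397 for TMEM120A and 0.484 for CFD. None passed after adjustment over the 11104 genes tested, of which 0.576% did, with a median rho of 0.185. With 18 pigs and so many genes, not passing does not show the absence of a relation. The highest, CFD, had an unadjusted permutation p of 0.043 and an adjusted p of 0.33, with r at 0.378 and 0.540 without Sample_391 and Sample_242. For CEBPA r was 0.505, and -0.0021 without Sample_889 and Sample_991, the 2 pigs with the most CEBPA in backfat. ACVR1C was too rare in muscle to enter the test.

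The spread between pigs was set beside counting error, which leaves out all other technical variation. In backfat the observed coefficient of variation was 24.2% for PPARG, 33.8% for CEBPA, 33.7% for ACVR1C, 23.1% for TMEM120A and 20.9% for CFD. Counting alone would give 4.21%, 4.55%, 10.6%, 5.66% and 1.56% in that order. On the log2 scale their SDs were 0.377, 0.424, 0.479, 0.313 and 0.319, beside a median of 0.278 over genes with at least 10 CPM in backfat. In muscle, counting alone would give 25.9% for PPARG, 30.7% for CEBPA and 134% for ACVR1C, against observed values of 45.0%, 72.7% and 183%. None of 20 relations of the 5 genes with gene counts per library or with the share of counts outside genes had an unadjusted permutation p under 0.05.

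The genes whose backfat level followed each of the 5 most closely were sought among 6092 named genes with a mean of at least 10 CPM, by Pearson's r of log2 CPM over 18 libraries, as a description. For PPARG they were MTFR1L (0.824) and ITGB1BP1 (0.764), and for ACVR1C they were DDHD2 (0.858), ART4 (0.800) and again MTFR1L (0.778). For CEBPA they were WDR91 (0.829), ENPP2 (0.814) and LRIG1 (0.808), which dropped to 0.631, 0.528 and 0.621 without the 2 pigs farthest from the median. TMEM120A was nearest to FAM3A (0.898), SH3GLB2 (0.891) and HDAC5 (0.888), and 197 of 8100 genes, with or without a symbol, reached an r of 0.7 with it, against 18 to 49 for the other 4. CFD was nearest to LRRC8A (0.805), DEPP1 (0.799) and NIBAN2 (0.788). MTFR1L alone stood near more than 1 of the 5.

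In muscle, over 5678 genes, none of the nearest genes was the same as in backfat. PPARG was nearest to VIM, the intermediate filament of mesenchymal cells (0.775), FCN2 (0.755) and S100A6 (0.755), and CEBPA to RILPL2 (0.765), PEPD (0.764) and TSPO (0.743). All 6 of these genes were highest in the muscle of Sample_889, and without it their r lay between 0.564 (PEPD) and 0.683 (FCN2). The nearest to TMEM120A were FLAD1 (0.845), RAD9A (0.805) and CEP120 (0.764), and to CFD they were SNRPA1 (0.815), HPF1 (0.768) and CACYBP (0.751). For ACVR1C, with its few counts and tied values, ACLY, IL6ST and GOLGB1 came nearest at 0.695 to 0.757, and at 0.421 to 0.528 without Sample_889.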

How the data were processed

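The authors deposited 1 table of expected counts per gene, not normalised, for 36 libraries. Per the labels' protocols, TruSeq RNA kits and reads of 100 nt from both ends were used; the tools listed, per the submitters' processing notes, are GSNAP and HTSeq. No source used here gives the build, annotation or strand setting, so overlapping or antisense genes cannot be told apart. Values move by steps of 0.5 (35.1% are not whole), and the deposited expected counts were rounded to whole numbers, ties to even. The 5 lines naming no gene stayed out; counts in no annotated gene made up 34.5% ± 5.60 of backfat and 19.9% ± 4.01 of muscle libraries (SD, n = 18). Columns not used numbered 0. A symbol was found for 11804 of 25322 genes, and genes without a row under their symbol were not analysed here. No sequence or coordinate was used.

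Tissue and pig come from the sample titles. The tissue test was edgeR 4.0.16 (R 4.3.3; glmQLFit robust, trimmed-mean factors, default low-count filter, tissue alone in the design), which tested 12542 genes, with Benjamini-Hochberg adjustment. SE is the log2 difference over the root of F. Alternatives were library totals, DESeq2 1.42.0, no filter, the pig as a block, doubled counts, and leaving out each pig or sets of 4. Correlations used log2 CPM (prior count 2), 100000 two-sided permutations of the pigs, and NumPy 2.4.6, SciPy 1.17.1 and pandas 2.3.3; between tissues, a gene needed 1 CPM or more in 15 or more of the 18 libraries, in backfat and in muscle alike. Figures used Matplotlib 3.10.9. The scripts were tested on simulated data. Of 12 gene pairs listed, 2 lacked a row for a gene.

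A pig's libraries come from 1 animal, so they are paired by design. Deviations from the tissue means correlated at 0.232 on average within a pig (0.096 to 0.368) and at -0.014 between pigs (up to 0.484). No batch is labelled. Pigs are separate animals.

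The 5 genes and the 14 lists were chosen with earlier results of these data known. Named genes are the 5, the markers PLIN1, PDGFRA, MRC1 and ACTA1, the second gene of each pair, for each list the up to 4 tested genes of highest mean CPM, and the 3 named genes nearest to each of the 5 in each tissue. ACVR2A, ACVR2B, PRDM16, NCOA2, NCOA3, HDAC3, G0S2, INSR, SYNE3, TMEM43, LMNB1, LEMD2, LEMD3, MASP1, GDF3 and the pigs singled out were named after their values were seen. Some genes that the rule selects are not reported here. The set of 4 pigs with the most PLIN1 in muscle for the correlations, the relations with library measures, and the shares without the muscle library of Sample_889, were also chosen after seeing the data.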

Additional observations from a re-analysis of the deposited data

How the results depend on the processing

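The tissue difference of each of the 5 genes kept its direction and its call at an adjusted p of 0.05 under every alternative. With the pig as a block (replicate block) it was 4.08 for PPARG, 4.39 for CEBPA, 6.36 for ACVR1C, 1.05 for TMEM120A and 1.90 for CFD. Over pigs left out in turn the ranges were 4.02 to 4.21, 4.30 to 4.503, 6.27 to 7.32 (the highest without Sample_889), 0.957 to 1.12 and 1.82 to 1.90. The block changed no call other than those of SMAD3 and LMNB1 among the genes named here. Genes higher in backfat numbered 5853 (5803 to 5947 with a pig left out), 10148 with library totals and 9077 with no low-count filter, which tests more genes; genes higher in muscle numbered 4919 (4810 to 4940) and 1520 with library totals.

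Library totals, which shift all genes towards backfat, turned ACVR1B to 0.85, PPARD to 0.86, KLF9 to 0.59, STAT5A to 0.94, STAT5B to 0.12, FOXO1 to 0.74, EP300 to 0.52, NCOR1 to 0.50, NCOA1 to 0.52, ACSL1 to 1.32, GDF11 to 1.10, BMPR2 to 0.86, SMAD4 to 0.48, SMAD3 to 1.06, SUN2 to 1.06, G0S2 to 1.05, INSR to 1.16 and MASP1 to 0.55. Values near 0 changed sign in other settings, for causes not tested. TMEM120B was -0.018 with DESeq2, -0.029 with doubled counts, -0.0033 with the block, -0.14 without the 4 pigs with the most ACTA1 in backfat, -0.024 without the 4 with the most PLIN1 in muscle and -0.048 to 0.070 with a pig left out. HDAC3 was -0.011 with DESeq2, -0.016 with doubled counts, -0.0015 without the 4 ACTA1 pigs and -0.015 to 0.047 with a pig left out. LEMD2 was -0.0071 without the 4 ACTA1 pigs, and LEMD3 was -0.011 without the 4 PLIN1 pigs and -0.034 to 0.084 with a pig left out. CTNNB1 was -0.0040 with doubled counts and -0.0049 to 0.057 with a pig left out. PRDM16, which fell under the low-count filter with 1 of the pigs left out, passed without Sample_911 (0.46) and G0S2 without Sample_991 (-0.55). GDF11 passed without the 4 PLIN1 pigs (-0.34), and PPARA did not with library totals (-0.25).

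The count of relations within tissues that passed, 0 with Spearman's rho, was 5 with Pearson's r, 1 with library totals, 2 with the library total removed, 2 without the 4 PLIN1 pigs, and 0 to 3 with a pig left out (1 without Sample_77 or Sample_656, 2 without Sample_889, 3 without Sample_231 or Sample_991). PPARG with ACVR1C in backfat passed at 0.740 by Pearson's r, 0.740 with library totals, 0.708 with the library total removed and 0.776 without the 4 PLIN1 pigs (0.654 to 0.762 with a pig left out). ACVR1C with PLIN1 in backfat passed at 0.680 by Pearson's r and 0.837 without the 4 PLIN1 pigs (0.610 to 0.841), and in muscle at 0.800 by Pearson's r and 0.718 with the library total removed (0.591 to 0.734). By Pearson's r PPARG passed with ACVR1C in muscle (0.657) and with PLIN1 in backfat (0.715; rho 0.544 to 0.713 with a pig left out). PPARG with CEBPA in muscle turned to -0.182 without the 4 ACTA1 pigs. The rho of PPARG between tissues turned to -0.051 with library totals and was -0.076 to 0.201 with a pig left out. The gap of ACVR1C to PLIN1 was -0.43 with a prior count of 0.5 and -2.04 to -1.90 with a pig left out. The depth limits ACVR1C, CEBPA and PPARG in muscle.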
